A study of Homo sapiens with 6 samples.

Results

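The small nucleolar RNA (snoRNA) host genes described here are 33 genes whose introns carry snoRNAs: 28 genes with SNHG symbols, and GAS5, ZFAS1, DANCR, EPB41L4A-AS1 and TAF1D. They were picked by name from a table of 63086 genes, and 32 of the 33 are annotated as long noncoding RNAs, TAF1D being protein coding. They were measured by RNA-seq in A375 cells, a human melanoma line kept in DMEM with serum. The 3 DUS1L knockout libraries come from cells edited with CRISPR/Cas9 at DUS1L, the gene of an enzyme that makes dihydrouridine in tRNA, and then selected as clones. The 3 wild-type libraries come from cells kept alongside with no such editing. The number of clones is not given in the labels, so an effect of the genotype cannot be told apart from one of picking clones out of the parental cells. The series design names 3 biological replicates per genotype, but the labels do not say whether they were separate cultures. The p-values therefore measure the spread between these libraries, which may not cover that between cultures.

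A snoRNA guides the chemical modification of ribosomal and spliceosomal RNA. C/D box snoRNAs guide ribose methylation with the methyltransferase fibrillarin, H/ACA box snoRNAs guide pseudouridylation, and small Cajal body RNAs do the same for spliceosomal RNAs. In human cells most snoRNAs are cut out of the introns of a host transcript after splicing. The spliced exons of a host are then free to leave the nucleus, and those of several noncoding hosts are known substrates of nonsense-mediated decay, the pathway that removes RNAs whose translation ends too early. Many hosts, like the ribosomal protein genes, begin with a terminal oligopyrimidine (TOP) tract, a C followed by a run of pyrimidines. These RNAs are known for sharing control of translation and stability through growth signalling.

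The bases around the annotated start are shown because the hosts differ in these bases while sharing a name. Each line gives 15 bases before and 15 after the RefSeq start (build GRCh38.p14), read 5′ to 3′ on the transcribed strand. Capitals mark CTTTT or CTTTC, the 2 motifs searched, which cannot overlap each other at 1 position because they differ only in the last base. The first 4 are hosts that were higher in knockout cells, the next 2 hosts that were lower, the next 2 hosts that were not called, and the last 3 are called hosts with no match in the window.
SNHG12 (chr1:28581859-28581888, minus strand): tcgcggcttcagcgccCTTTCtccccgccg
SNHG32 (chr6:31834901-31834930, plus strand): ctcgccattttagttCTTTTtgcgaagtgg
ZFAS1 (chr20:49278627-49278656, plus strand): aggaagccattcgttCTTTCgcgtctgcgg
SNHG29 (chr17:16438972-16439001, plus strand): cccctcCTTTTgtgaggattgggatattcc
SNHG4 (chr5:139274086-139274115, plus strand): ctcggctcccggctgccCTTTCccctccgg
SNHG19 (chr16:2155344-2155373, minus strand): ctcgcccgcccctgtCTTTTcggggtcgag
TAF1D (chr11:93741481-93741510, minus strand): acggaaatagccaaccCTTTTcttccgcac
SNHG5 (chr6:85678719-85678748, minus strand): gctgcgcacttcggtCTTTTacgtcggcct
SNHG17 (chr20:38435314-38435343, minus strand): ttgtcgtgtggcctcagtccttcgccgtcc
GAS5 (chr1:173869031-173869060, minus strand): tgccatcatgaattcagatgtgtttatttt
SNHG1 (chr11:62855871-62855900, minus strand): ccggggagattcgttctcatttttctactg

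Of 29 hosts with a start sequence, 11 (37.9%) held a match, against 7.56% of 27305 RefSeq starts and 41 of 63 ribosomal protein starts (65.1%). On the opposite strand 1 host of 29 (3.45%) held a match, against 5.46% of all starts. A match was present in 4 of 8 hosts that rose in knockout cells, in 2 of 5 that fell and in 4 of 12 that were tested and not called. Hosts with and without the motif thus stood on each side of the comparison. A match describes these letters only, and it may lie before the start, as in SNHG29, or after it. A match therefore does not show a TOP start, and a window with no match does not show that one is absent. The window shown for GAS5 lies outside the span that GENCODE gives the gene, and RefSeq and GENCODE starts differ for other hosts too. No start sequence was used for SNHG15, SNHG9, SNHG6 and SNHG25.

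The libraries held 17121315 to 18861514 estimated counts, and levels are given as CPM, counts relative to a library size adjusted by the TMM method. A count of 3 corresponds to 0.159 to 0.176 CPM, which covers counting error only. DUS1L itself had 55.4, 54.7 and 53.1 CPM in knockout libraries, against 79.95, 75.7 and 77.0 CPM in wild-type libraries (adjusted p = 1.7e-06 by edgeR's quasi-likelihood test, with a log2 fold change of -0.51 and an SE of 0.06). The edit itself cannot be read from gene counts. The first principal component (53% of the variance) separated the genotypes, and on the second (13.7%) the knockout libraries lay between -6.25 and 9.23, against 31.6 for wild-type replicate 1 and -15.5 and -16.3 for the other wild-type libraries. Of the 7 melanocyte lineage markers, SOX10 and S100B were lower in knockout cells, MITF was not called, TYR was at 0 and PMEL, MLANA and DCT had at most 9 counts in a library. The 7 together summed to between 478.8 and 545.6 CPM in knockout libraries, against between 612.0 and 647.7 CPM in wild-type libraries. Their part in the results was not tested, and in bulk RNA fewer cells of a kind and less RNA per cell cannot be told apart. Of 17 keratinocyte, fibroblast, leukocyte and endothelial markers 10 were tested and none was called; KRT1, KRT5 and CD3E were at 0. The summed fibroblast markers, mostly COL1A1 and COL1A2, ranged from 54.0 to 169.7 CPM in knockout libraries, against 25.6 to 70.3 CPM in wild-type libraries. The keratinocyte markers summed to 49.98 to 59.0 CPM in knockout and 53.2 to 58.8 CPM in wild-type libraries, and the leukocyte and endothelial markers to under 3 CPM in every library.

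The host genes changed in both directions and by modest amounts. Of 28 hosts with enough counts to test, 9 rose in knockout cells (32.1%), 5 fell (17.9%) and 14 were not called at an adjusted p under 0.05, taken over all 16046 genes tested. Across all those genes 41.2% were called, 20.5% higher and 20.7% lower, so the share of hosts that fell was near that of all genes. The share that rose was above it, a difference that was not itself tested and that nearly vanished without knockout replicate 1, where 5 of 28 hosts (17.9%) and 16.8% of 16408 genes were higher. Among the 2058 tested long noncoding RNAs, 13.5% were higher and 8.21% lower. The median log2 fold change of the hosts was 0.03, against -0.0042 for all genes tested and 0.05 for the long noncoding RNAs. The tested hosts include some that passed the filter through the levels of either genotype, so these counts describe the tested members and not all 33. Called changes ran from 1.11-fold to 1.40-fold upward and from 1.27-fold to 1.35-fold downward. No host passed the test for a change over 1.5-fold (edgeR's glmTreat), which 2.31% of all genes passed upward and 1.27% downward; 1 host, SNHG22, had an unadjusted p under 0.05 there, and 0 did in DESeq2 or limma-voom.

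The libraries of the 2 genotypes did not overlap for 16 hosts, with 8 higher and 8 lower in every knockout library, and they overlapped for 12. Across all genes 51.1% did not overlap, 25.4% higher and 25.8% lower. The 16 hosts include SNHG22 and SNHG28, each of which passed the filter through the genotype where it was higher. Summed over the 33 hosts, the level was 2676, 2612 and 2500 CPM in knockout libraries, against 2489, 2454 and 2384 CPM in wild-type libraries. The lowest knockout sum lay just above the highest wild-type sum. The hosts took 0.272%, 0.264% and 0.253% of the unscaled counts in knockout libraries, against 0.244%, 0.24% and 0.236% in wild-type libraries. The 4 most abundant hosts, GAS5, SNHG29, TAF1D and SNHG1, made up 47.5% to 49.0% of the sum in knockout libraries and 48.3% to 49.0% in wild-type libraries. Within that nearly equal share, GAS5 took 16.2% to 16.5% in knockout libraries, against 14.9% to 15.7% in wild-type libraries. SNHG1 took 6.93% to 7.95% in knockout libraries, against 9.49% to 10.7% in wild-type libraries. Per kilobase of annotated exon, GAS5 had the highest mean level in both genotypes, at 86.35 CPM in knockout and 75.4 CPM in wild-type cells. SNHG32, at 53.0 CPM per kilobase in knockout and 45.5 in wild-type cells, came next in knockout cells. SNHG1, at 48.6 CPM per kilobase in knockout and 62.0 in wild-type cells, came next in wild-type cells. The length used counts every base annotated as exon in any transcript, which for SNHG1 is the whole gene, so this order depends on the annotation.

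**Figure D1:**
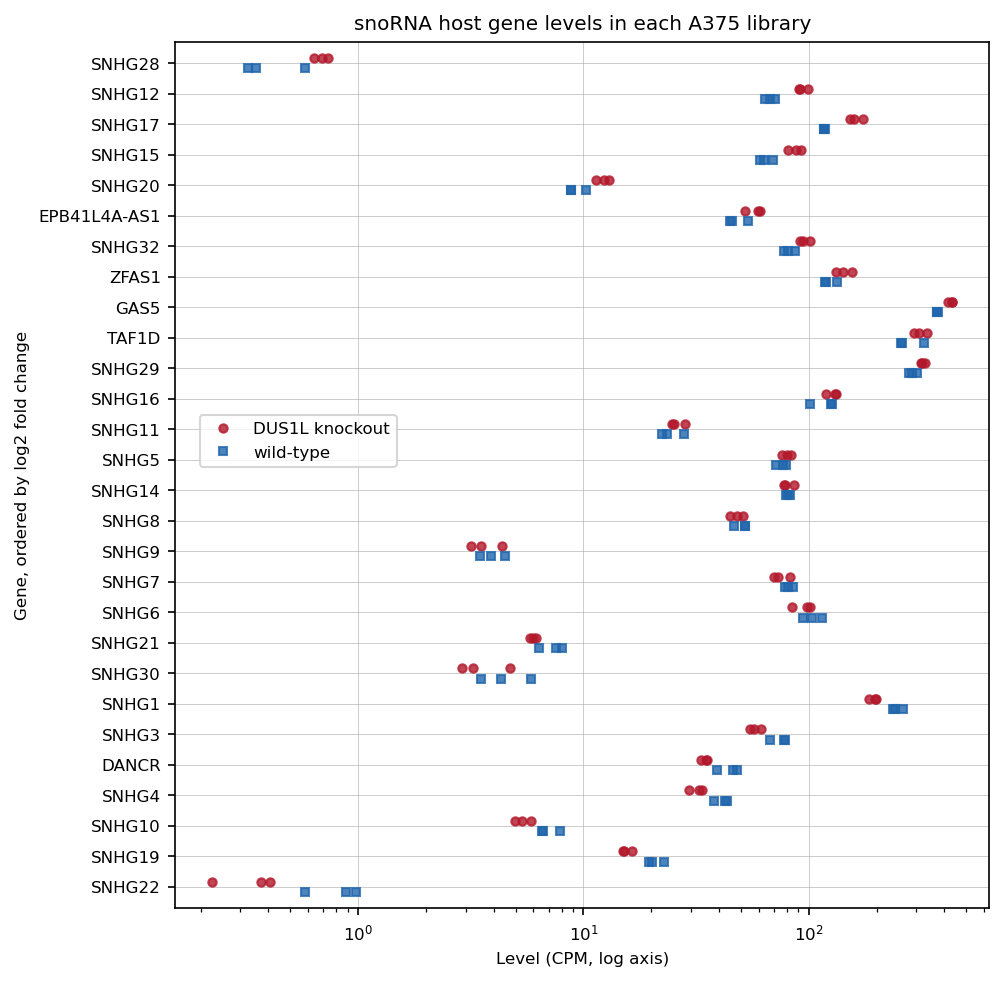
Level of each tested snoRNA host gene in the 6 libraries, in CPM on a log scale, with the 3 DUS1L knockout libraries marked apart from the 3 wild-type libraries. Levels run from under 1 CPM for SNHG22 and SNHG28 to 433.3 CPM for GAS5, and for most hosts the libraries of both genotypes lie close together.

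SNHG12, SNHG17 and SNHG15 rose most among the hosts that passed the test. SNHG12 (chr1:28578538-28583132, minus strand), which carries both H/ACA and C/D snoRNAs, had 99.1, 90.7 and 91.7 CPM in knockout libraries, against 70.55, 63.7 and 67.4 CPM in wild-type libraries. Each knockout library lay well above each wild-type library, and the fold change was 1.40 (log2 0.48, SE 0.06, adjusted p = 4.43e-06, edgeR quasi-likelihood test). SNHG17 (chr20:38419638-38435409, minus strand), host of the SNORA71 family of H/ACA snoRNAs, had 173.4, 153.1 and 158.8 CPM in knockout libraries, against 117.8, 116.9 and 117.3 CPM in wild-type libraries. The wild-type libraries were almost level and all knockout libraries were higher (log2 0.46, SE 0.06, adjusted p = 1.84e-06, edgeR). SNHG15 (chr7:44983019-44986961, minus strand), host of SNORA9, had 87.7, 92.9 and 81.2 CPM in knockout libraries, against 69.4, 60.5 and 63.1 CPM in wild-type libraries. These groups did not overlap either (log2 0.44, SE 0.07, adjusted p = 3.3e-05, edgeR).

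GAS5 (chr1:173858559-173868882, minus strand), named for its rise in growth-arrested cells and known as a decay substrate and as a decoy that binds the DNA-binding domain of the glucocorticoid receptor, rose by a smaller factor from a higher level. It had 433.3, 430.6 and 413.7 CPM in knockout libraries, against 370.8, 370.3 and 374.7 CPM in wild-type libraries. The groups did not overlap, with a log2 fold change of 0.20 (SE 0.05, adjusted p = 0.0024, edgeR). These 4 calls held under all 14 alternative analyses, with the highest adjusted p at 0.0271, for GAS5.

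The other 5 hosts called higher did not hold under every alternative. SNHG20 (chr17:77086716-77099902, plus strand), host of the Cajal body RNA SCARNA16, had 13.0, 11.3 and 12.35 CPM in knockout libraries, against 8.82, 8.78 and 10.3 CPM in wild-type libraries (log2 0.40, SE 0.13, adjusted p = 0.0178, edgeR). All knockout libraries were higher. The call was lost without knockout replicate 1 (adjusted p = 0.0816), knockout replicate 3 (0.0534) or wild-type replicate 2 (0.0749), with a range of 0.00966 to 0.0816 over the 14 alternatives. EPB41L4A-AS1, host of SNORA13, had 60.9, 59.35 and 51.9 CPM in knockout libraries, against 53.85, 44.8 and 45.9 CPM in wild-type libraries (log2 0.25, SE 0.08, adjusted p = 0.0174, edgeR). The lowest knockout library overlapped wild-type replicate 1. That call was lost without knockout replicate 1 (0.0952) or 2 (0.0732), or wild-type replicate 2 (0.105) or 3 (0.0794), with a range of 0.00111 to 0.105.

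SNHG32, which lies among heat shock and histocompatibility genes and hosts SNORD48 and SNORD52, had 101.1, 94.1 and 91.0 CPM in knockout libraries, against 87.1, 80.8 and 77.8 CPM in wild-type libraries (log2 0.22, SE 0.06, adjusted p = 0.00821, edgeR). The groups did not overlap; without knockout replicate 1 the call was lost (0.0662, in a range of 0.000958 to 0.0662). ZFAS1, host of the SNORD12 family, had 155.9, 142.1 and 131.6 CPM in knockout libraries, against 133.7, 118.9 and 117.9 CPM in wild-type libraries (log2 0.21, SE 0.07, adjusted p = 0.0144, edgeR). Its lowest knockout library lay below wild-type replicate 1. The call was lost without knockout replicate 1 (0.122), or wild-type replicate 2 (0.0768) or 3 (0.0752), and with offsets for GC content and length (0.0723), in a range of 0.00118 to 0.122. SNHG29, host of SNORD49A, SNORD49B and SNORD65, had 316.5, 329.2 and 317.9 CPM in knockout libraries, against 287.8, 302.4 and 279.7 CPM in wild-type libraries (log2 0.15, SE 0.05, adjusted p = 0.023, edgeR). No libraries overlapped. This smallest of the called changes was lost without knockout replicate 2 (0.0955) or 3 (0.0603) or wild-type replicate 3 (0.0984), with offsets for GC content and length (0.128; 0.156 with the replicate number as a block as well) and with no filter on low counts (0.0665), in a range of 0.00338 to 0.156.

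The 5 hosts that were lower fell by similar factors. SNHG1 (chr11:62851978-62855953, minus strand), which carries a row of C/D snoRNAs from SNORD22 to SNORD30, had 185.3, 196.0 and 198.8 CPM in knockout libraries, against 236.3, 261.8 and 241.5 CPM in wild-type libraries. Every knockout library was lower (log2 -0.35, SE 0.05, adjusted p = 2.92e-05, edgeR quasi-likelihood test). SNHG3 (chr1:28505980-28510892, plus strand), host of the H/ACA snoRNAs SNORA73A and SNORA73B, which act in the cleavage of ribosomal RNA precursors, had 57.2, 61.7 and 54.7 CPM in knockout libraries, against 67.1, 78.05 and 78.4 CPM in wild-type libraries. Here too no libraries overlapped (log2 -0.37, SE 0.07, adjusted p = 0.000376, edgeR).

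DANCR (chr4:52712325-52723623, plus strand), an RNA named for antagonizing differentiation and host of SNORA26, had 35.3, 34.85 and 33.2 CPM in knockout libraries, against 46.15, 48.1 and 39.3 CPM in wild-type libraries (log2 -0.37, SE 0.08, adjusted p = 0.00112, edgeR). SNHG4 (chr5:139274102-139284899, plus strand), host of SNORA74A and SNORA74D, had 29.5, 33.5 and 32.7 CPM in knockout libraries, against 38.0, 42.55 and 43.3 CPM in wild-type libraries (log2 -0.37, SE 0.08, adjusted p = 0.000909, edgeR). SNHG19 (chr16:2154792-2155405, minus strand), host of SNORD60, had 16.4, 15.1 and 15.1 CPM in knockout libraries, against 19.6, 22.8 and 20.2 CPM in wild-type libraries (log2 -0.43, SE 0.10, adjusted p = 0.00231, edgeR). For each of these 3 hosts the knockout libraries all lay below the wild-type libraries. All 5 lower calls held under the 14 alternatives, with the highest adjusted p at 0.021, for SNHG19.

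**Figure D2:**
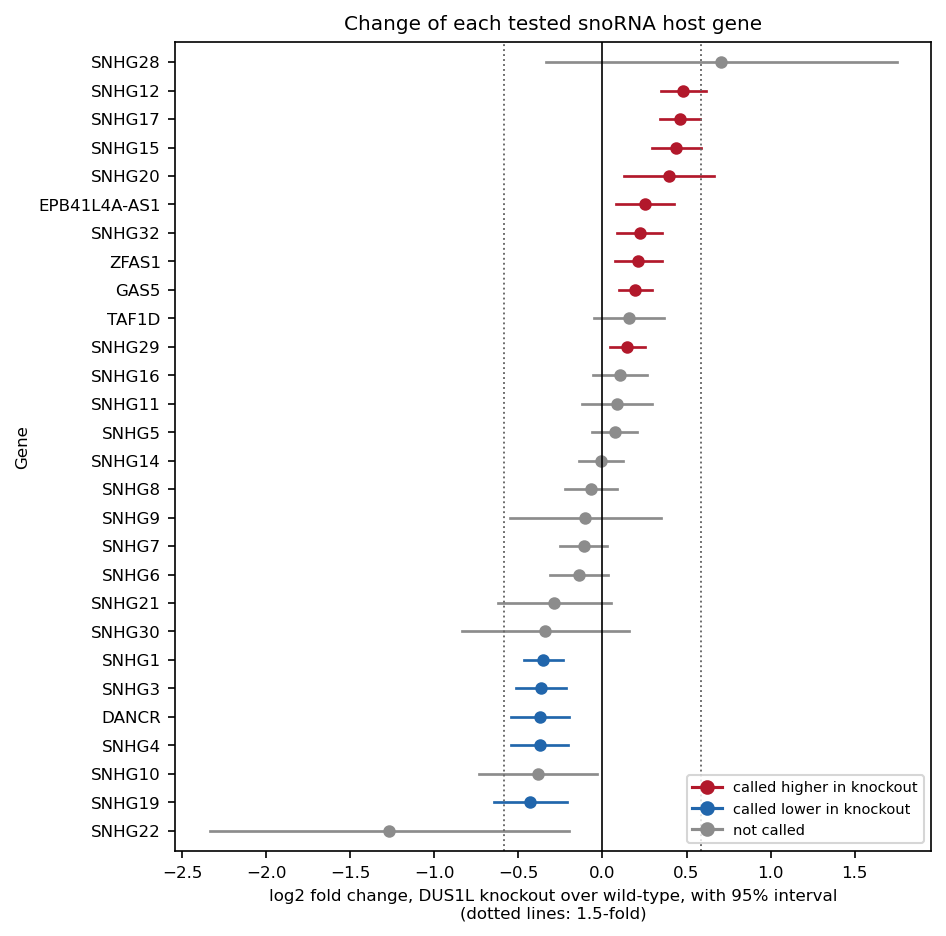
Log2 fold change of each tested host, DUS1L knockout over wild-type, with its 95% interval from the edgeR fit; points are marked by whether the host was called higher, called lower or not called. The called hosts lie between -0.43 and 0.48, and the widest intervals belong to SNHG22 and SNHG28, the hosts with the fewest counts.

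Among the 14 hosts that were tested and not called, the intervals differ widely. SNHG14, the long transcript of the imprinted Prader-Willi region that carries 84 annotated snoRNAs, had 77.5, 86.1 and 78.2 CPM in knockout libraries, against 81.3, 79.0 and 82.8 CPM in wild-type libraries. The 95% interval of its log2 difference ran from -0.14 to 0.12. TAF1D, the only coding member, makes a subunit of the selectivity factor of RNA polymerase I, and had 335.4, 307.3 and 294.4 CPM in knockout libraries, against 325.3, 260.4 and 255.8 CPM in wild-type libraries (log2 0.16, SE 0.09, adjusted p = 0.214, edgeR). Wild-type replicate 1 stood among the knockout libraries, and without it TAF1D was called higher (log2 0.28, adjusted p = 0.000212, in a range of 0.000212 to 0.483 over the alternatives). It was also called with no filter on low counts (adjusted p = 0.049) and with the replicate number as a block (0.0334).

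SNHG5, SNHG16 and SNHG11 had log2 fold changes of 0.07, 0.11 and 0.08 with overlapping libraries and adjusted p from 0.295 to 0.531 (edgeR). SNHG8, SNHG9, SNHG7 and SNHG6 had values from -0.14 to -0.07, also with overlapping libraries and adjusted p from 0.18 to 0.74. SNHG10 had 5.84, 5.32 and 4.96 CPM in knockout libraries, against 6.58, 7.91 and 6.57 CPM in wild-type libraries (log2 -0.39, SE 0.17, adjusted p = 0.0725, edgeR). SNHG21 had 6.004, 5.78 and 6.15 CPM in knockout libraries, against 7.53, 8.02 and 6.34 CPM in wild-type libraries (log2 -0.29, SE 0.16, adjusted p = 0.163, edgeR). For both, every knockout library was lower though the test was not passed. SNHG30 had a log2 fold change of -0.34 (SE 0.24, adjusted p = 0.271, edgeR), with libraries that overlapped.

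The lowest tested hosts had estimated counts near the filter. SNHG22 had 7, 7 and 4 counts in knockout libraries, against 15, 18 and 10 in wild-type libraries (log2 -1.27, 95% interval -2.34 to -0.20, adjusted p = 0.053, edgeR). SNHG28 had 11.66, 11.85 and 12.66 counts in knockout libraries, against 6.12, 6.15 and 10.15 in wild-type libraries (log2 0.71, 95% interval -0.34 to 1.75, adjusted p = 0.276, edgeR). Their libraries did not overlap, but each passed the filter through the genotype where it was higher, and the depth does not give a firmer value. SNHG28 also shares 90.8% of its exon bases with ENSG00000256029 on the same strand. That gene had 0 CPM in every knockout library, against 0.47, 0 and 0.0582 CPM in wild-type libraries. How reads were divided between the 2 genes was not tested. Of the 5 hosts with too few counts to test, SNHG26 had 13, 12 and 5 counts in knockout libraries, against 0, 3 and 4 in wild-type libraries. SNHG25 had 3, 8 and 1 counts in knockout libraries, against 13.03, 2 and 4 in wild-type libraries. SNHG31, SNHG27 and SNHG18 had at most 2 counts in any library, so their levels were not detectable at this depth.

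Hosts that lie near each other on a chromosome differed in their values. SNHG3 and SNHG12 lie 67.6 kb apart on chromosome 1, and the 95% interval of the log2 difference was -0.52 to -0.22 for SNHG3 and 0.35 to 0.61 for SNHG12. SNHG17 and SNHG11 lie 10.9 kb apart on chromosome 20, with intervals of 0.34 to 0.58 for SNHG17 and -0.12 to 0.29 for SNHG11. Hosts of C/D snoRNAs and hosts of H/ACA snoRNAs each stood on both sides. The counts by class stand beside the 20.5% of all tested genes that were higher and the 20.7% that were lower. No difference between the classes, or from all genes, was tested. Of 12 hosts of C/D snoRNAs alone, 3 were higher, 2 lower, 5 not called and 2 not tested. Of 12 hosts of H/ACA snoRNAs alone, 3 were higher, 3 lower, 4 not called and 2 not tested. Of 4 hosts of Cajal body RNAs, 1 was higher and 3 were not called. Of 3 hosts of both C/D and H/ACA snoRNAs, SNHG12 was higher, TAF1D was not called and SNHG25 was not tested. SNHG28, whose snoRNA has no name in the annotation, and GAS5, whose snoRNAs were not analysed here, are in none of these classes.

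The snoRNAs themselves were almost without counts in these libraries. The annotation places 153 snoRNAs inside 32 of the hosts, 84 of them in SNHG14. Only 11 had any count, the highest value was 4, in SNORA73B of SNHG3, and none reached 10. All 153 together had 6.06, 4.57 and 8.82 estimated counts in knockout libraries, against 3.16, 4 and 4.61 in wild-type libraries. The values above are those counted for the host genes, and no difference in the snoRNAs can be read from so few counts. For some hosts, such as SNHG1 and SNHG15, the annotated exons cover the whole gene with its snoRNAs. Whether reads from snoRNAs or unspliced introns were counted for the hosts was not tested, nor was the reason for the low snoRNA counts.

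Several hosts begin close to a protein-coding gene that runs the other way. SNHG1 starts 51 bases from SLC3A2, the heavy chain of amino acid transporters, which had 1325, 1235 and 1215 CPM in knockout libraries, against 621.2, 527.1 and 633.5 CPM in wild-type libraries. SLC3A2 rose (log2 1.08, SE 0.06, adjusted p = 9.37e-10, edgeR) while SNHG1 fell. The starts of ZFAS1 and ZNFX1, a helicase of antiviral defence, lie 248 bases apart and the genes share 249 exon bases on opposite strands. ZNFX1 had 142.3, 142.1 and 151.1 CPM in knockout libraries, against 83.5, 85.7 and 86.9 CPM in wild-type libraries. Both genes of the pair rose, ZNFX1 with a log2 fold change of 0.77 (SE 0.06, adjusted p = 1.67e-09, edgeR) and ZFAS1 with 0.21. With the strand setting not given, reads in the shared bases cannot be told apart, and their part in the ZFAS1 value was not tested. SNHG19 starts 293 bases from TRAF7, which had 123.7, 123.8 and 128.3 CPM in knockout libraries, against 141.2, 157.2 and 153.9 CPM in wild-type libraries, and both genes fell (log2 -0.27, SE 0.06, adjusted p = 0.000684 for TRAF7, edgeR).

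The other pairs gave no single pattern. SNHG9, not called, starts 54 bases from RPS2, a ribosomal protein gene that fell (log2 -0.30, SE 0.05, adjusted p = 3.23e-05, edgeR). SNHG22, not called, starts 12 bases from ACAA2, a mitochondrial thiolase gene that fell (log2 -0.27, SE 0.08, adjusted p = 0.0112, edgeR). TAF1D and MED17, a Mediator subunit gene, have starts 164 bases apart and share 88 exon bases on opposite strands. Neither was called, with MED17 at a log2 fold change of 0.12 (adjusted p = 0.13, edgeR). GAS5 rose and ZBTB37, 800 bases away, was not called (log2 0.11, SE 0.14, adjusted p = 0.581, edgeR). Of the untested hosts, SNHG18 starts 95 bases from SEMA5A, which rose (log2 1.01, SE 0.29, adjusted p = 0.00843), and SNHG31 starts 498 bases from BARD1, which was not called (log2 -0.31, adjusted p = 0.0765, both edgeR).

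**Figure D3:**
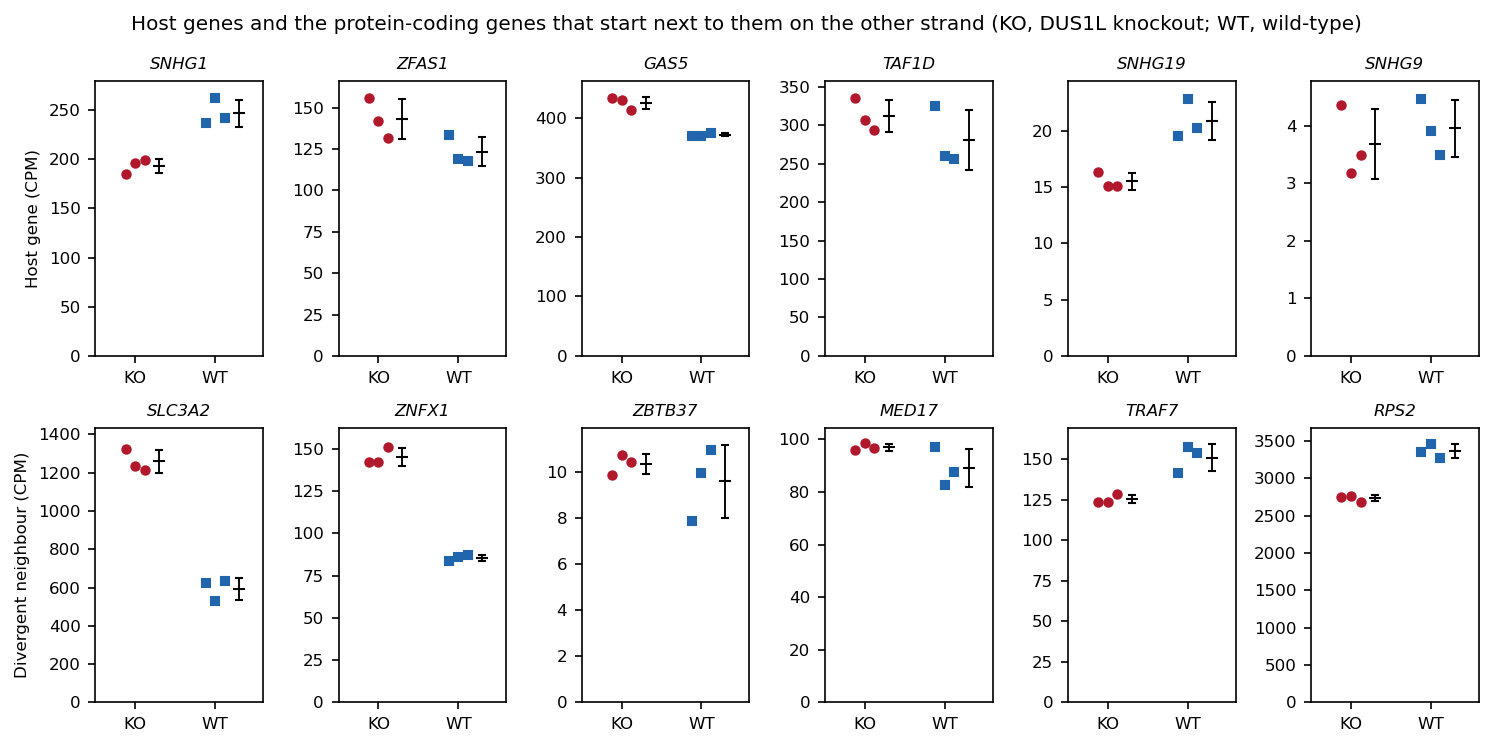
Levels in CPM of hosts and of the divergent neighbour whose start lies within 1 kb, in the DUS1L knockout libraries and, to their right, the wild-type libraries, with the mean and SD of each 3 libraries beside the points. SLC3A2 is higher in knockout libraries where SNHG1 is lower, ZNFX1 and ZFAS1 are both called higher, and TRAF7 and SNHG19 are both lower.

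Reads from overlapping exons limit some of these values, since the strand setting of the counting is not given in the sources used here. Leaving aside snoRNAs and other small RNA genes, exon bases are shared with another gene by 23 of the 33 hosts. The other gene lies on the same strand for 9 hosts and on the opposite strand for 19. The snoRNAs inside some hosts, such as SNHG1 and SNHG15, also lie within annotated host exons and are not in these numbers. SNHG3 shares 242 exon bases (5.92% of its own) with RCC1, the nuclear exchange factor of Ran, which had 101.4 ± 2.1 CPM in knockout and 120.2 ± 7.8 CPM in wild-type cells (SD, n = 3 each; log2 -0.24, adjusted p = 0.00235, edgeR). SNHG4 shares 626 of its 4469 exon bases with MATR3, a nuclear matrix protein gene at 402.9 ± 5.1 CPM in knockout and 443.5 ± 39.7 CPM in wild-type cells (SD, n = 3 each; adjusted p = 0.0584, edgeR). In both pairs the partner was the more abundant gene, and its part in the host's value was not tested.

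SNHG32 shares no exon bases with a heat shock gene, but the gene it does share them with begins within one. ENSG00000285565, a long noncoding RNA that begins within HSPA1B and shares 418 exon bases (23.2%) with SNHG32, had 16.4, 4.51 and 9.53 CPM in knockout libraries, against 0, 1.95 and 0 CPM in wild-type libraries. It was not called (adjusted p = 0.0717, edgeR), though every knockout library was higher. HSPA1B, an inducible chaperone gene on the same strand, had 1635, 1338 and 1582 CPM in knockout libraries, against 203.2, 204.3 and 302.3 CPM in wild-type libraries (log2 2.68, SE 0.22, adjusted p = 0.000869, edgeR). The part of these transcripts in the SNHG32 value was not tested. Among the hosts not called, SNHG28 and SNHG21 share 90.8% and 72.9% of their exon bases with another gene on the same strand, and SNHG6 shares 58.9% with MCMDC2 on the opposite strand.

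The genes of proteins that bind or build snoRNA particles included some that were higher and some that were lower. Their counts, and those of the lists after them, stand beside the 20.5% of all tested genes that were higher and the 20.7% that were lower. Of 8 core particle proteins, 1 was higher and 4 were lower, with a median log2 fold change of -0.12. NHP2, of the H/ACA particle, had 121.1 ± 1.7 CPM in knockout and 149.5 ± 5.8 CPM in wild-type cells (SD, n = 3 each; log2 -0.30, adjusted p = 0.000132, edgeR). FBL, fibrillarin, fell (log2 -0.25, adjusted p = 0.000604), and NOP58, its partner in the C/D particle, rose (log2 0.28, adjusted p = 0.00185, both edgeR). Of 13 assembly and transport factors 5 were higher and 2 lower, with a median of 0.10. PHAX, the export adaptor that carries snoRNAs to Cajal bodies, had 76.5 ± 2.7 CPM in knockout and 55.2 ± 1.3 CPM in wild-type cells (SD, n = 3 each; log2 0.47, adjusted p = 5.38e-06, edgeR). The assembly factors ZNHIT6 (log2 0.40, adjusted p = 0.000499) and NAF1 (0.37, adjusted p = 0.0142) also rose, and without wild-type replicate 1, 1 of the 13 was lower.

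Of 18 factors of nonsense-mediated decay and the exon junction complex, 9 were higher and none was lower, with a median log2 fold change of 0.17. SMG1, the kinase that phosphorylates the decay helicase UPF1, had 152.8 ± 2.4 CPM in knockout and 115.7 ± 6.0 CPM in wild-type cells (SD, n = 3 each; log2 0.40, adjusted p = 8.03e-06, edgeR). DHX34 (log2 0.41, adjusted p = 6.76e-05) and SMG5 (0.31, adjusted p = 0.000228, both edgeR) rose too. Of 7 other genes whose RNAs are known decay substrates, 6 were higher and none lower, with a median of 1.0. They include ATF3, a stress transcription factor gene at 461.1 ± 33.2 CPM in knockout and 130.0 ± 16.5 CPM in wild-type cells (SD, n = 3 each; log2 1.83, adjusted p = 5.09e-08, edgeR). GADD45B and UPP1 had log2 fold changes of 1.27 and 1.00 (adjusted p of 1.65e-10 and 1.74e-09, edgeR). This list was chosen with earlier results of these data known, and it holds stress-response genes such as ATF3. Whether decay had a part in their values, or in those of the hosts, was not tested.

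Genes that share the TOP start with many hosts were mostly lower. Of 79 cytosolic ribosomal protein genes, 70 were lower and 1 was higher, with a median log2 fold change of -0.28, and RPL10 had 1192 ± 42 CPM in knockout and 1616 ± 64 CPM in wild-type cells (SD, n = 3 each; log2 -0.44, adjusted p = 5.97e-07, edgeR). Of 15 other TOP genes 9 were lower and 1 higher, with a median of -0.18. HNRNPA1, a splicing regulator, fell the most of the 4 named (log2 -0.59, adjusted p = 6.29e-09), and the elongation factor EEF1A1 (-0.34, adjusted p = 1.19e-05), the nucleolar protein NPM1 (-0.38, adjusted p = 1.27e-05) and RACK1 (-0.24, adjusted p = 0.000268, all edgeR) fell too. Of 10 regulators of TOP mRNAs, with a median of 0.04, 2 were lower and none higher: EIF4EBP1, at 104.8 ± 9.0 CPM in knockout and 121.6 ± 0.3 CPM in wild-type cells, and RPS6KB2, at 50.8 ± 1.8 CPM in knockout and 59.15 ± 6.2 CPM in wild-type cells (SD, n = 3 each; adjusted p of 0.00902 and 0.026, edgeR). Without wild-type replicate 1, 1 of the 10 was higher, and none of the ribosomal protein or other TOP genes was.

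**Figure D4:**
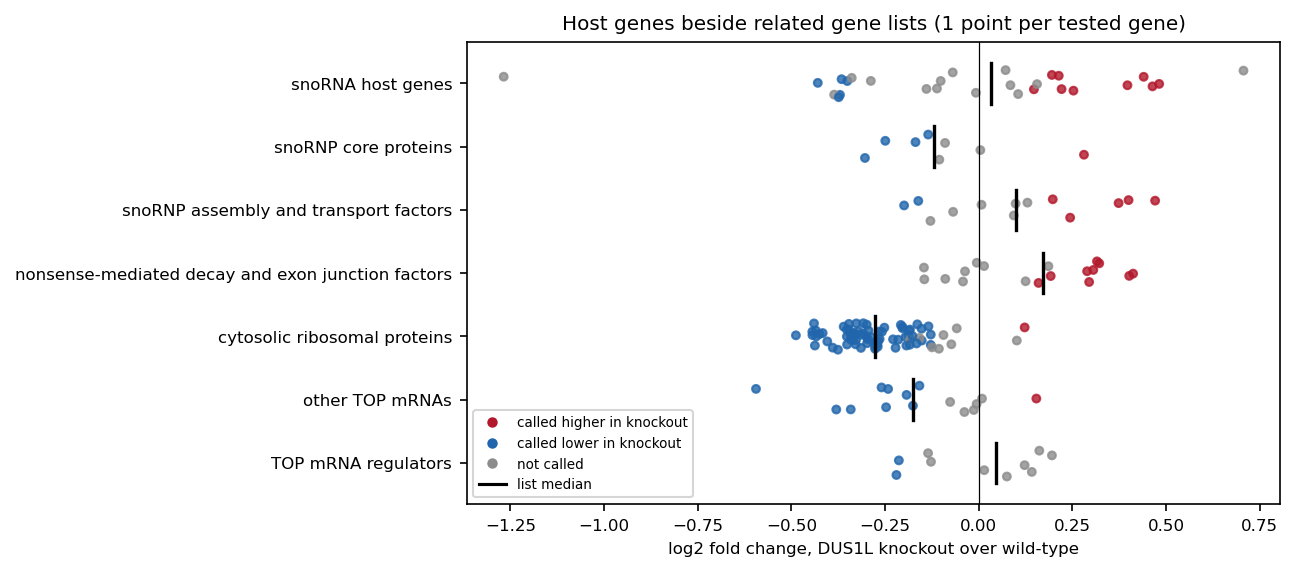
Log2 fold changes (DUS1L knockout over wild-type) of the single genes of each group, with the snoRNA host genes beside the companion lists and the median of each group marked. Ribosomal protein genes lie mostly below 0 with a median of -0.28, the nonsense-mediated decay and exon junction factors called lie above 0, and the hosts spread on both sides of 0 with a median of 0.03.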

How the data were processed

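Paired-end BGISEQ libraries were made from total RNA of A375 cells, per the labels' protocols. What the authors deposited are estimated counts per gene, not normalized, in a single table with 6 library columns, and 23.6% to 24.8% of the counted genes in a library had fractional values. The submitters' processing notes name the build as GRCh38 (hg38); aligner, counting tool, strand setting and annotation are not given in the sources used here. Of 63086 gene identifiers, 62541 (99.1%) matched GENCODE release 44, which gave symbols and coordinates. Start sequences are from RefSeq (GRCh38.p14).

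Counts were rounded and filtered with edgeR's filterByExpr (minimum count 10), which kept 16046 genes and set aside 14272 others with a count. Libraries were scaled by TMM and the genotypes in the sample titles were compared by a robust quasi-likelihood fit in edgeR 4.0.16 (R 4.3.3), two-sided, with Benjamini-Hochberg adjustment over all genes and a threshold of 0.05. Standard errors follow from the fold change and its F statistic. The common biological coefficient of variation was 7.12%. No libraries matched within sampling noise (chi-square per degree of freedom 3.71 to 7.11 within groups and 33.9 to 50.5 between them). The fit was tested on simulated counts; where few genes changed, the share of false calls exceeded the threshold, and where as many changed as in the data it did not.

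Alternatives were other scalings, no filter, the replicate number as a block, offsets for GC content and length (known for 99.5% of genes), DESeq2 1.42.0, limma-voom 3.58.1 and leaving out each library; the 1.5-fold tests in DESeq2 and limma-voom and the list counts without wild-type replicate 1 were added after seeing the data. The members, gene lists and tests were chosen with earlier results of these data known. The text names every member, and of each companion list up to 4 tested genes with the smallest p, of which some are not reported here; overlapping and divergent partners were named by position, and those described were chosen after their values were seen.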

Additional observations from a re-analysis of the deposited data

How the results depend on the processing

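Of the 14 calls among the hosts, 9 (4 higher and 5 lower) held under all 14 alternatives. Against a change over 1.5-fold, 371 genes were higher and 204 lower in knockout cells, with 0 hosts higher and 0 lower. Leaving out 1 library gave 5 hosts higher (without knockout replicate 1) to 10 (without wild-type replicate 1), against 9. These were 17.9% of 28 and 34.5% of 29 tested hosts, against 16.8% and 20.2% of all genes tested. Each time 5 hosts were lower, 17.2% to 17.9% of those tested, near the 16.4% to 20.0% of all genes. SNHG14, not called, changed sign, with a log2 fold change of 0.038 under library size alone as scaling, 0.019 without knockout replicate 1, 0.011 without knockout replicate 3 and 0.007 without wild-type replicate 3; over the 6 left-out libraries it ran from -0.059 to 0.019. SNHG10 was called lower with offsets for GC content and length (log2 -0.443, adjusted p = 0.0389, range 0.0389 to 0.257, edgeR), and SNHG6 with those offsets and the block (-0.151, adjusted p = 0.0356, range 0.0356 to 0.576). The cause of these changes was not tested.

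Same-numbered libraries did not deviate together (correlations across genes of -0.0296, -0.00139 and 0.0255). With 3 libraries per genotype, these values cannot show whether same-numbered samples shared a culture or a processing day. With the replicate number as a block, 10 hosts were higher and 5 lower, and 3122 genes were higher and 3119 lower. Hosts under 1 CPM are limited by depth.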

Other observations

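Protein-coding hosts of snoRNAs are set here beside all tested genes, of which 20.5% were higher and 20.7% lower. Of 213 such hosts tested, 43 were higher and 71 lower in knockout cells, with a median log2 fold change of -0.06, and without the ribosomal protein genes 43 of 185 were higher and 46 lower, with a median of -0.02. HSPA8, a constitutive chaperone gene, had 5704, 5680 and 6034 CPM in knockout libraries, against 3998, 3696 and 3679 CPM in wild-type libraries (log2 0.61, adjusted p = 7.31e-09, edgeR). DCP1A, of the decapping complex that removes RNA caps, had 80.4 ± 2.2 CPM in knockout and 53.2 ± 1.9 CPM in wild-type cells (SD, n = 3 each; log2 0.60, adjusted p = 2.68e-07, edgeR). LAMB1, a laminin chain gene, had 383.5 ± 12.1 CPM in knockout and 591.7 ± 2.3 CPM in wild-type cells (SD, n = 3 each; log2 -0.63, adjusted p = 3.1e-09, edgeR). NUCKS1 had 349.2 ± 10.6 CPM in knockout and 490.9 ± 30.2 CPM in wild-type cells (SD, n = 3 each; log2 -0.49, adjusted p = 3.42e-07, edgeR).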
